A study of Mus musculus with 12 samples.

Results

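The genes described are those of the proteasome and its regulators in mouse CD8+ T cells. They were chosen by symbol, as protein-coding genes that begin with Psma, Psmb, Psmc, Psmd, Psme, Psmf or Psmg and go on with a number. Of 55536 annotated genes, 50 carry such a symbol, and 48 of those had counts that sum to 120 or more over the 12 libraries. The remaining pair, Psmb11 of the thymoproteasome and Psma8 of the testis, had sums of 3 and 109 counts and are not described further. All 48 passed the filter on low counts of the test.

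RNA-seq was performed on OT-I CD8+ T cells, which carry a transgenic T cell receptor for a peptide of ovalbumin on a C57BL/6J background and, per the study's methods, lack Rag1 or Rag2. In the Ag group (5 libraries), OT-I cells had been transferred into C57BL/6J mice that received the peptide with control IgG. In the Ag+Costim group (5 libraries), the recipients received the peptide with agonist antibodies to OX40 (CD134) and 41BB (CD137), costimulatory receptors of the TNF receptor superfamily. Both groups were harvested at 4 days according to the labels, and the study's methods give a slightly shorter interval. The Naive group (2 libraries) held cells of OT-I mice that were not transferred, so Naive cells differ from the others in transfer and host as well as in antigen, and these cannot be told apart. The labels give neither the age of the animals nor whether each library came from 1 animal. P-values therefore measure the spread between these libraries. Cells were purified from spleen and lymph nodes, and poly(A) RNA was amplified with SMART-Seq v4.

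The proteasome degrades proteins that are tagged with ubiquitin. Its 20S core is a barrel of alpha rings, which gate the entry, and beta rings, of which Psmb5, Psmb6 and Psmb7 carry the active sites. In the immunoproteasome these are replaced by Psmb8, Psmb9 and Psmb10, which are induced by interferon gamma, are constitutively abundant in lymphocytes and favour peptides that suit MHC class I. The 19S regulatory particle binds and unfolds substrates with a ring of ATPases (Psmc) and non-ATPase subunits (Psmd), while PA28 alpha and beta (Psme1 and Psme2), PA28 gamma (Psme3) and PA200 (Psme4) are other activators of the core.

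Total counts ran from 24006053 (Ag 4) to 49294934, with the other 11 libraries at or above 40028682. Spearman correlations of the libraries of a group were between 0.966 and 0.984. The 5 T cell markers were present throughout, at summed levels of 9083 to 9593 CPM (counts scaled to the size of the library) in Naive, 6192 to 8122 in Ag and 3399 to 4594 in Ag+Costim. The 5 genes of proliferation summed to 42.7 to 46.4 in Naive, 488 to 1050 in Ag and 2435 to 3394 in Ag+Costim. B cell markers (5 genes) summed to 2.44 to 2.72, 55.5 to 97.4 and 29.8 to 66, myeloid markers (5 genes) to 27 to 55.9, 56 to 174 and 82.7 to 145, and erythroid markers (5 genes) to 168 to 2312, 588 to 6721 and 14 to 210, in the same order. The highest erythroid sum was that of Ag 4. The part of these differences in the results below was not tested, except that each result was recomputed without each library. In bulk RNA, fewer cells of a type and less RNA per cell cannot be told apart.

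Promoters were read for 41 of the 48 genes (RefSeq, GRCm38.p6, from 250 bases before to 50 after the start), to show the letters that known regulators of proteasome genes recognise. Both strands were searched, and no match printed here overlapped a match of another motif. A match is a description of the letters, not of a bound site. The antioxidant response element core TGACNNNGC, which the transcription factor Nfe2l1 can bind when proteasome capacity falls, occurred in 6 of 41 genes (14.6%, against 14% of 27025 genes with a promoter). Examples from catalytic and 19S genes are shown in the sense of the gene, with the motif or its reverse complement in capitals.
Psmb5 (chr14:54618023-54618052, minus strand): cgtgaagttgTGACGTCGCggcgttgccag
Psmb6 (chr11:70525338-70525367, plus strand): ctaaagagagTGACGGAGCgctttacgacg
Psmc6 (chr14:45329587-45329616, plus strand): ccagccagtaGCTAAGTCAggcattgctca
Psmd12 (chr11:107479278-107479307, plus strand): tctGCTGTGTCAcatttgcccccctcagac

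Interferon-related letters were searched because Psmb8 to Psmb10, Psme1 and Psme2 are classical interferon gamma targets. The gamma-activated sequence TTCNNNGAA was found in 3 of 41 genes (7.32%, against 9.55% of all), and among the interferon-induced subunits only in Psmb8. The interferon-stimulated response element core GAAANNGAA was found in 7 of 41 (17.1%, against 9.76% of all), and among those subunits only in Psme1. The absence of a match says only that these letters are not in the 300-base window.
Psmb8 (chr17:34198088-34198117, plus strand): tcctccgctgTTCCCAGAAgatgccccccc
Psme1 (chr14:55578494-55578523, plus strand): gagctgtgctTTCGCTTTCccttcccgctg

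The ETS motif CCGGAAG occurred in 15 of 41 genes (36.6%, against 9.93% of all). CCAAT, the NF-Y box, was found in 14 (34.1%, against 41.1%), the E-box CACGTG in 4 (9.76%, against 8.09%) and the NRF1 motif GCGCATGCG in 2 (4.88%, against 1.95%). Of the 15 genes with the ETS motif, Psma6, Psmd4, Psmd6, Psmd11, Psme4 and Psmg1 were not called in Ag+Costim vs Ag. Psmg3 was called lower there, at -0.50. A link of the motif to the differences between groups was not tested. ETS matches are shown for 3 genes that were higher in Ag+Costim than in Ag.
Psme3 (chr11:101316095-101316124, plus strand): gggcacaaggcCCGGAAGctccgacagccc
Psmd2 (chr16:20651615-20651644, plus strand): tccgcagggcgCTTCCGGtctggaggacaa
Psmd13 (chr7:140882377-140882406, plus strand): cgcccgcggtgCCGGAAGtgagcgagcact

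Most proteasome genes were higher in Ag than in Naive. In Ag vs Naive, 40 of 48 genes (83.3%) were called higher, where 24.2% of the 18817 genes tested were (edgeR's quasi-likelihood test over all 12 libraries, Benjamini-Hochberg adjusted p below 0.05). None was called lower, where 22.5% of all genes were. Estimates below 0 were those of Psme3 and Psme4, of which Psme4 alone had an unadjusted p under 0.05, so that count was 1. DESeq2 called 0 lower, and limma on log2(FPKM + 1), a scale per gene length, called these 2. The median log2 fold change of the 48 was 0.66, and that of all genes tested was 0.016. In 42 of the 48 every Ag library lay above both Naive libraries, which held for 27.2% of all genes, and in none did all Ag libraries lie below Naive, which held for 29.2%. The map of the 48 genes by library shows their levels, with Psme3, Psme4 and the inhibitor Psmf1 among those not called.

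**Figure D1:**
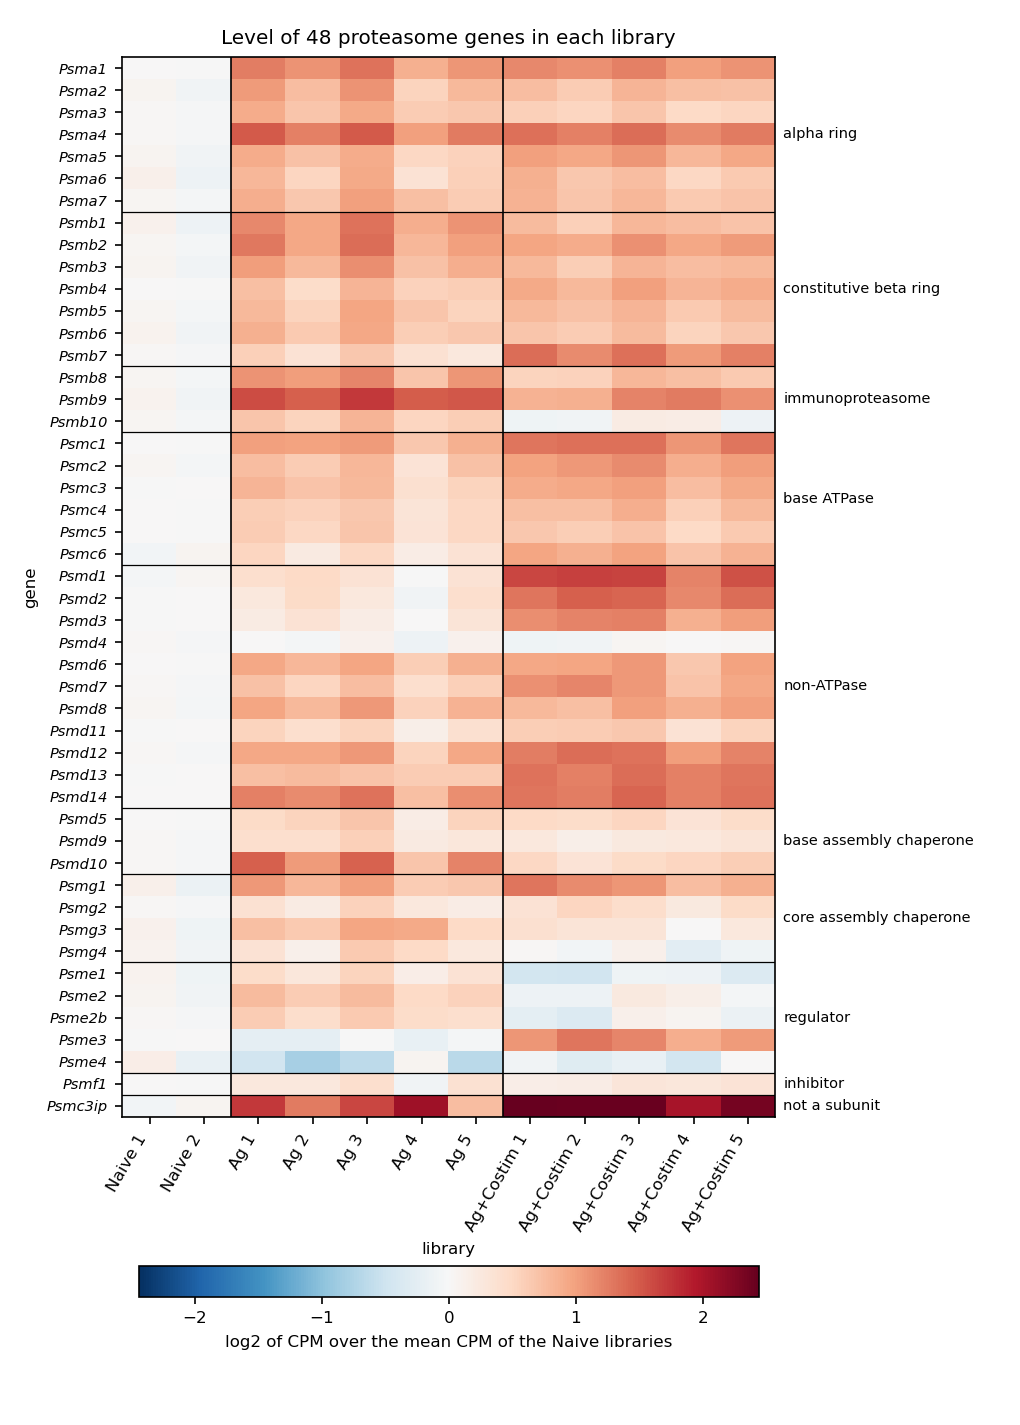
Each row is 1 of the 48 genes, grouped by role, and each column 1 library. The colour is log2 of the CPM over the mean CPM of the Naive libraries. Most rows turn from pale to red between Naive and Ag. The immunoproteasome and PA28 alpha and beta rows become paler in Ag+Costim. Psmd1, Psmd2, Psmd3 and Psme3 become redder from Ag to Ag+Costim, and the reddest row there is that of Psmc3ip.

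The core rose as a whole. All 7 alpha ring genes were called higher in Ag than in Naive, with log2 fold changes from 0.65 to 1.31, and all 7 constitutive beta genes, from 0.45 to 1.10. Psma4, an alpha ring subunit, had the largest rise of these. Its levels were 116 and 112 CPM in the Naive libraries, 321, 267, 320, 227 and 275 CPM in Ag, and 290, 267, 294, 254 and 273 CPM in Ag+Costim. The Ag and Ag+Costim libraries overlapped, and both lay above Naive. Its log2 fold change in Ag vs Naive was 1.31 (SE 0.14, adjusted p = 6.46e-06 with edgeR), and in Ag+Costim vs Ag it was -0.034 (SE 0.10, adjusted p = 0.793).

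The constitutive catalytic subunits differed from each other in Ag+Costim. Psmb5, the chymotrypsin-like subunit, was at 164 and 155 CPM in Naive, 277, 234, 311, 256 and 234 CPM in Ag and 277, 263, 282, 249 and 273 CPM in Ag+Costim. Psmb6, the caspase-like subunit, was at 239 and 211 CPM in Naive, 409, 352, 434, 340 and 354 CPM in Ag and 359, 344, 383, 329 and 357 CPM in Ag+Costim. For both, the Ag and Ag+Costim libraries overlapped and all lay above Naive. Their log2 fold changes in Ag vs Naive were 0.72 and 0.75 (SE 0.12 each, adjusted p = 0.000276 and 0.000194 with edgeR), and in Ag+Costim vs Ag they were 0.034 and -0.092 (SE 0.09 each, adjusted p = 0.772 and 0.4). With a correction for gene length, which removes the trend of each library's counts over exon length, Psmb5 was called higher in Ag+Costim, at 0.27, and with upper-quartile scaling, which sets the libraries equal at that quartile of the counts, Psmb6 was called lower, at -0.29.

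Psmb7, the trypsin-like subunit, was at 76.7 and 73.5 CPM in Naive, 113, 96.5, 118, 96.9 and 89.5 CPM in Ag and 193, 167, 190, 154 and 177 CPM in Ag+Costim. No Ag+Costim library overlapped an Ag library, and the groups stood in the order Naive, Ag, Ag+Costim. The log2 fold change was 0.45 in Ag vs Naive (SE 0.13, adjusted p = 0.0104 with edgeR), and it was not called when either Naive library was left out (0.42 and 0.48). Between Ag+Costim and Ag it was 0.78 (SE 0.09, adjusted p = 1.21e-05), the largest among the beta genes, and 0.74 with the length correction. Psmb7 overlaps the genes Nek6, Gm13586 and Gm27634 in the annotation, and the strand setting of the counting is not given in the sources used here.

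The 3 immunoproteasome subunits rose from Naive to Ag and fell from Ag to Ag+Costim. Psmb8 (LMP7, chr17:34197721-34201454) was at 647 and 604 CPM in Naive, 1347, 1268, 1424, 1003 and 1323 CPM in Ag, and 910, 922, 1097, 1039 and 970 CPM in Ag+Costim. Ag 4 lay within the range of Ag+Costim and the other Ag libraries above it. Psmb9 (LMP2, chr17:34181987-34187764) was at 197 and 176 CPM in Naive, 564, 512, 619, 521 and 534 CPM in Ag, and 337, 341, 430, 447 and 402 CPM in Ag+Costim, without overlap between any groups. Psmb10 (MECL-1, chr8:105935735-105938444) was at 239 and 222 CPM in Naive, 368, 334, 409, 330 and 351 CPM in Ag, and 215, 217, 264, 260 and 211 CPM in Ag+Costim. Its Ag libraries lay above all others, and Naive and Ag+Costim overlapped. The positions are those of GENCODE vM21 on GRCm38.

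Psmb9 had, in Ag vs Naive, the largest log2 fold change of all 48 genes, 1.56 (SE 0.14, adjusted p = 1.77e-06 with edgeR). Psmc3ip, described below, was level with it at 1.55 (SE 0.28), and without Ag 5 Psmc3ip was higher (1.70 against 1.57). Psmb8 rose by 1.02 (SE 0.14, adjusted p = 4.48e-05) and Psmb10 by 0.64 (SE 0.13, adjusted p = 0.00107). In Ag+Costim vs Ag the log2 fold changes were -0.37 for Psmb8 (SE 0.10, adjusted p = 0.00619 with edgeR), -0.49 for Psmb9 (SE 0.10, adjusted p = 0.000779) and -0.62 for Psmb10 (SE 0.09, adjusted p = 7.82e-05). All 3 were called lower under every alternative tried, with Psmb10 at -0.34 with the length correction. Against Naive, Psmb8 (0.66, SE 0.13, adjusted p = 0.00105) and Psmb9 (1.07, SE 0.14, adjusted p = 2.39e-05) were higher in Ag+Costim, and Psmb10 was at 0.018 (SE 0.12, adjusted p = 0.914). On the log2(FPKM + 1) scale (FPKM being counts scaled to both length and library), tested with limma, Psmb10 was called lower in Ag+Costim than in Naive, at -0.27. Psmb9 overlaps Tap1 on the opposite strand, and Tap1 had log2 fold changes of 0.36 in Ag vs Naive and 0.43 in Ag+Costim vs Ag, the second in the other direction than Psmb9. The comparisons share the Ag libraries, so an error that raises Ag would appear as a rise in one and a fall in the other.

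**Figure D2:**
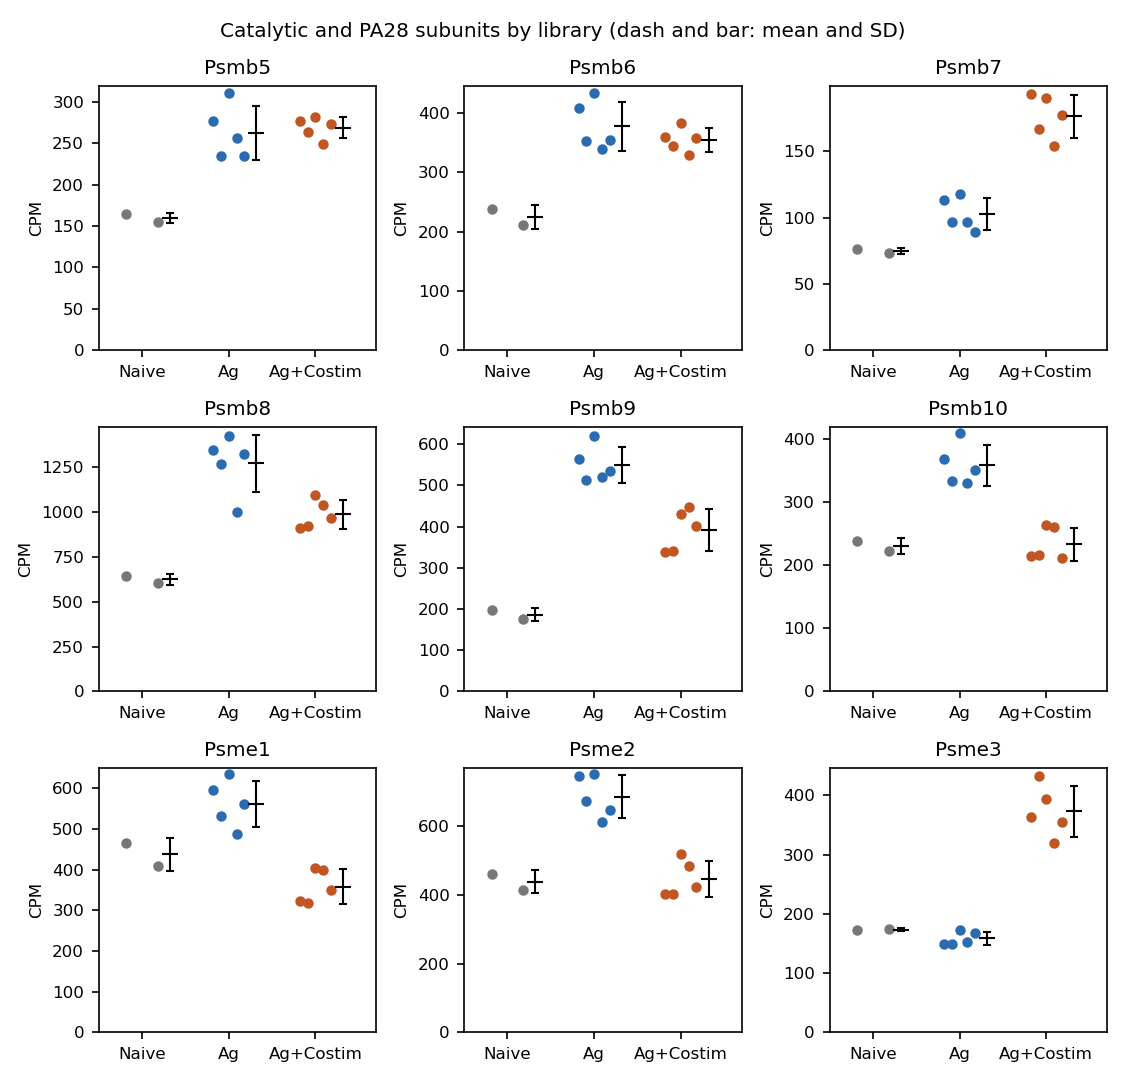
Each point is the CPM of 1 library, with the mean and SD of the group beside the points, for the catalytic subunits and PA28. Psmb8 to Psmb10, Psme1 and Psme2 peak in Ag, Psmb7 and Psme3 are highest in Ag+Costim, and Psmb5 and Psmb6 are at like levels in Ag and Ag+Costim.

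The balance of each immunoproteasome subunit to the subunit it replaces was expressed as the log2 ratio of counts per kilobase within a library, which needs no scaling between libraries. Psmb8 to Psmb5 was 0.06 ± 0.01 in Naive (SD, n = 2), 0.37 ± 0.21 in Ag (n = 5) and -0.04 ± 0.13 in Ag+Costim (n = 5), and Ag 4 (0.06) lay inside the range of Ag+Costim. Psmb9 to Psmb6 was -1.24 ± 0.02, -0.42 ± 0.06 and -0.83 ± 0.21 in the same order, with no overlap between the groups. Psmb10 to Psmb7 was 2.62 ± 0.03, 2.81 ± 0.10 and 1.41 ± 0.23. All 5 Ag+Costim libraries, at 1.16 to 1.76, were below every Ag library (2.71 to 2.97) and both Naive libraries (2.60 and 2.65). In linear terms the mean ratio of Psmb10 to Psmb7 was 6.16 in Naive, 7.01 in Ag and 2.66 in Ag+Costim. The level of such a ratio depends on the gene lengths used, and in FPKM the same means were 3.08, 3.35 and 1.23, while its difference between Ag+Costim and Ag was -1.40 from counts and -1.45 from FPKM on the log2 scale. Neither value removes the trend over exon length. With the length correction Psmb10 was at -0.34 and Psmb7 at 0.74 in Ag+Costim vs Ag, and without it at -0.62 and 0.78.

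**Figure D3:**
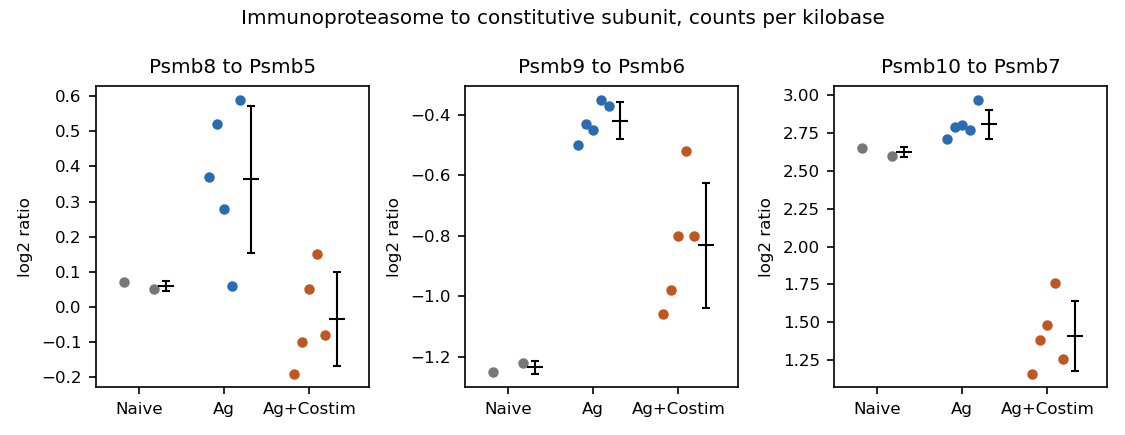
Each point is the log2 ratio of counts per kilobase in 1 library, with the mean and SD of the group. Psmb9 to Psmb6 is separate in the 3 groups, and Psmb10 to Psmb7 is lower in all 5 Ag+Costim libraries than in the other 7.

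Most of the genes that rose from Ag to Ag+Costim encode the 19S particle. In that comparison 15 of the 48 genes (31.2%) had a higher call and 11 (22.9%) a lower one by edgeR's test, against 26.6% and 26.5% of all genes tested, so neither share is far from the background. The median log2 fold change of the 48 was 0.038, and that of all genes -0.049. In 9 genes the Ag+Costim libraries all lay above the Ag libraries and in 9 below (18.8% each, against 21.3% and 18.5% of all genes). By role the calls were not spread evenly. Of the 6 base ATPases 5 were called higher and none lower. Of the 11 non-ATPase subunits with a Psmd symbol 6 were called higher and none lower. Outside the symbol rule, the 19S subunit Sem1 was called lower (-0.74), and the proteasome-associated Adrm1 was not called (0.14). Of the 7 alpha ring genes none was called higher and 1 lower (Psma3, -0.21, SE 0.08, adjusted p = 0.0473 with edgeR, with overlapping libraries), and of the 7 constitutive beta genes Psmb7 and Psmb4 (0.25, SE 0.08, adjusted p = 0.0178) were higher and Psmb1 (-0.37, SE 0.09, adjusted p = 0.00385) lower. In the alpha ring the length correction called Psma5 (0.47) and Psma6 (0.28) higher, and upper-quartile scaling called Psma2 (-0.32) and Psma7 (-0.25) lower. The call of Psma3 was lost in leave-one-out fits, without Naive 1 for instance, and that of Psmb4 with upper-quartile scaling and without Ag+Costim 3.

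Psmd1 and Psmd2 are the large scaffold subunits of the 19S base that receive ubiquitin receptors and shuttles. Psmd1 was at 121 and 128 CPM in Naive, 166, 175, 159, 123 and 160 CPM in Ag and 386, 396, 391, 289 and 366 CPM in Ag+Costim. Psmd2 was at 279 and 282 CPM in Naive, 336, 386, 337, 264 and 373 CPM in Ag and 693, 767, 754, 636 and 723 CPM in Ag+Costim. All Ag+Costim libraries lay far above the others, and Ag overlapped Naive through Ag 4. From Ag to Ag+Costim their log2 fold changes were 1.22 (SE 0.11, adjusted p = 8.73e-07 with edgeR) and 1.07 (SE 0.10, adjusted p = 1.24e-06). Neither was called in Ag vs Naive, at 0.33 (SE 0.15, adjusted p = 0.0782) and 0.28 (SE 0.13, adjusted p = 0.107). Both were called higher there without Ag 4 (0.41 and 0.35), with upper-quartile scaling (0.38 and 0.32) and with the length correction (0.70 and 0.38), and Psmd1 also without Ag+Costim 4.

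Psmd3, a subunit of the 19S lid, followed the same order, at 150 and 152 CPM in Naive, 174, 192, 172, 153 and 188 CPM in Ag and 330, 349, 355, 275 and 305 CPM in Ag+Costim. Its log2 fold change was 0.88 in Ag+Costim vs Ag (SE 0.09, adjusted p = 2.63e-06 with edgeR) and 0.22 in Ag vs Naive (SE 0.12, adjusted p = 0.154), where the length correction made it a call, at 0.42. Psmd13, another lid subunit, rose in both steps, from 122 and 125 CPM in Naive to 205, 211, 201, 190 and 189 CPM in Ag and 311, 290, 318, 291 and 305 CPM in Ag+Costim. The 3 groups did not overlap. Its log2 fold changes were 0.69 in Ag vs Naive (SE 0.09, adjusted p = 3.54e-05) and 0.61 in Ag+Costim vs Ag (SE 0.07, adjusted p = 3.93e-06). The lid's deubiquitinase Psmd14 rose from Naive to Ag, from 122 and 122 CPM to 287, 272, 306, 202 and 267 CPM, and stood at 300, 290, 326, 286 and 305 CPM in Ag+Costim, which overlapped Ag. Its log2 fold changes were 1.13 (SE 0.14, adjusted p = 2.38e-05) and 0.18 (SE 0.10, adjusted p = 0.154). The second was called higher with the length correction, at 0.26, and was -0.019 with upper-quartile scaling.

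The other 19S genes moved less. The ATPases Psmc6 (0.51), Psmc2 (0.37), Psmc1 (0.36), Psmc3 (0.25) and Psmc4 (0.21) and the lid subunits Psmd7 (0.41) and Psmd12 (0.35) were called higher in Ag+Costim than in Ag, with SE of 0.08 to 0.10. Psmc5, Psmd6, Psmd8, Psmd11 and the ubiquitin receptor Psmd4 were not called, with log2 fold changes between -0.034 and 0.14, though Psmc5 was called higher with the length correction, at 0.33. Psmd4 was between 214 and 252 CPM in all 12 libraries and was called in no comparison, save that upper-quartile scaling called it lower in Ag+Costim vs Ag, at -0.23. Upper-quartile scaling ended the calls of Psmc1, Psmc2, Psmc3, Psmc4, Psmd7 and Psmd12, and the length correction that of Psmc2, at 0.15. The calls of Psmc3 and Psmc4 were also lost in most fits that left out 1 library.

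Gene length went with the differences between groups. In Ag+Costim vs Ag the Spearman correlation of exon length with the log2 fold change was 0.24 over the 48 genes and 0.22 over all 18817 genes tested. In Ag vs Naive it had the opposite sign, at -0.23 and -0.20, and it was -0.44 over the 7628 genes at least as abundant as the lowest of the 48. The points share their libraries and are not replicates. Psmd1 has 7265 exonic bases, Psmd3 4967 and Psmd2 4038. After a correction fitted on the trend of all genes, these genes kept log2 fold changes of 0.89, 0.67 and 0.96. With it the 48 genes held 21 higher and 13 lower calls in Ag+Costim vs Ag, and all 18817 genes tested held 4914 and 4925. With this setting the higher calls were a larger share of the 48 than of all genes.

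Among the activators of the core, PA28 alpha and beta were lower in Ag+Costim than in Ag and PA28 gamma was higher. PA28 alpha (Psme1) was at 466 and 409 CPM in Naive, 596, 531, 634, 488 and 561 CPM in Ag and 322, 317, 405, 400 and 349 CPM in Ag+Costim. PA28 beta (Psme2) was at 462 and 415 CPM in Naive, 747, 672, 751, 613 and 646 CPM in Ag and 402, 402, 518, 483 and 422 CPM in Ag+Costim. Both were highest in Ag with no overlap with Ag+Costim, and Psme1 in Ag+Costim was below both Naive libraries. Their log2 fold changes in Ag+Costim vs Ag were -0.65 and -0.62 (SE 0.10 each, adjusted p = 9.51e-05 and 9.33e-05 with edgeR), and -0.44 and -0.35 with the length correction. Psme2 rose from Naive to Ag by 0.64 (SE 0.13, adjusted p = 0.0012), while the call of Psme1 (0.36, SE 0.13, adjusted p = 0.0402) was lost under the length correction, without either Naive library and under other alternatives. Against Naive, Ag+Costim was at -0.29 and 0.021 (adjusted p = 0.0787 and 0.9), upper-quartile scaling called Psme1 lower, at -0.44, and on the log2(FPKM + 1) scale limma called both lower, at -0.66 and -0.36.

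Psme2b, a copy nearly identical to Psme2 with 1 annotated transcript, was at 140 and 133 CPM in Naive, 211, 184, 213, 187 and 181 CPM in Ag and 116, 108, 149, 143 and 124 CPM in Ag+Costim, highest in Ag. It had log2 fold changes of 0.52, -0.61 and -0.089 in Ag vs Naive, Ag+Costim vs Ag and Ag+Costim vs Naive. Its reads may belong to Psme2, so it is uncertain as a gene of its own. The log2 ratio of Psme1 to Psme2 in counts per kilobase was -0.33 ± 0.03 in Naive, -0.61 ± 0.06 in Ag and -0.64 ± 0.04 in Ag+Costim (SD, n = 2, 5 and 5). Ag and Ag+Costim differed in it by less than the spread of the libraries. In FPKM the Naive libraries were apart, at 0.02 and -0.48.

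PA28 gamma (Psme3), a nuclear activator, was at 172 and 175 CPM in Naive, 150, 150, 173, 153 and 168 CPM in Ag and 364, 432, 394, 319 and 355 CPM in Ag+Costim. The Ag+Costim libraries were all above the others, and Ag and Naive overlapped. The log2 fold change in Ag+Costim vs Ag, 1.23, was the largest of the 48 (SE 0.09, adjusted p = 1.41e-07 with edgeR), and it was 1.29 with the length correction. From Naive to Ag it was -0.13 (SE 0.12, adjusted p = 0.385), a value that limma on log2(FPKM + 1) called lower, at -0.30. PA200 (Psme4) was the least abundant of the activators per length, at mean levels of 4.35 FPKM in Naive, 2.44 in Ag and 3.05 in Ag+Costim. It was at 22.3 and 17.6 CPM in Naive, 14.5, 11.3, 12.8, 20.8 and 12.6 CPM in Ag and 18.9, 16.3, 17.5, 14.7 and 20.2 CPM in Ag+Costim, and Ag 4 stood above the other Ag libraries. Psme4 was not called in any comparison (-0.48, 0.29 and -0.19). Without Ag 4 it had a lower call in Ag vs Naive, at -0.64, and a higher call in Ag+Costim vs Ag, at 0.45, and in FPKM it was lower in Ag than in Naive, at -0.65. Psmf1, an inhibitor of the core (PI31), was not called in any comparison, with log2 fold changes of 0.25, -0.0055 and 0.25. With the length correction it was called higher in the first, at 0.57, and lower in the second, at -0.31.

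**Figure D4:**
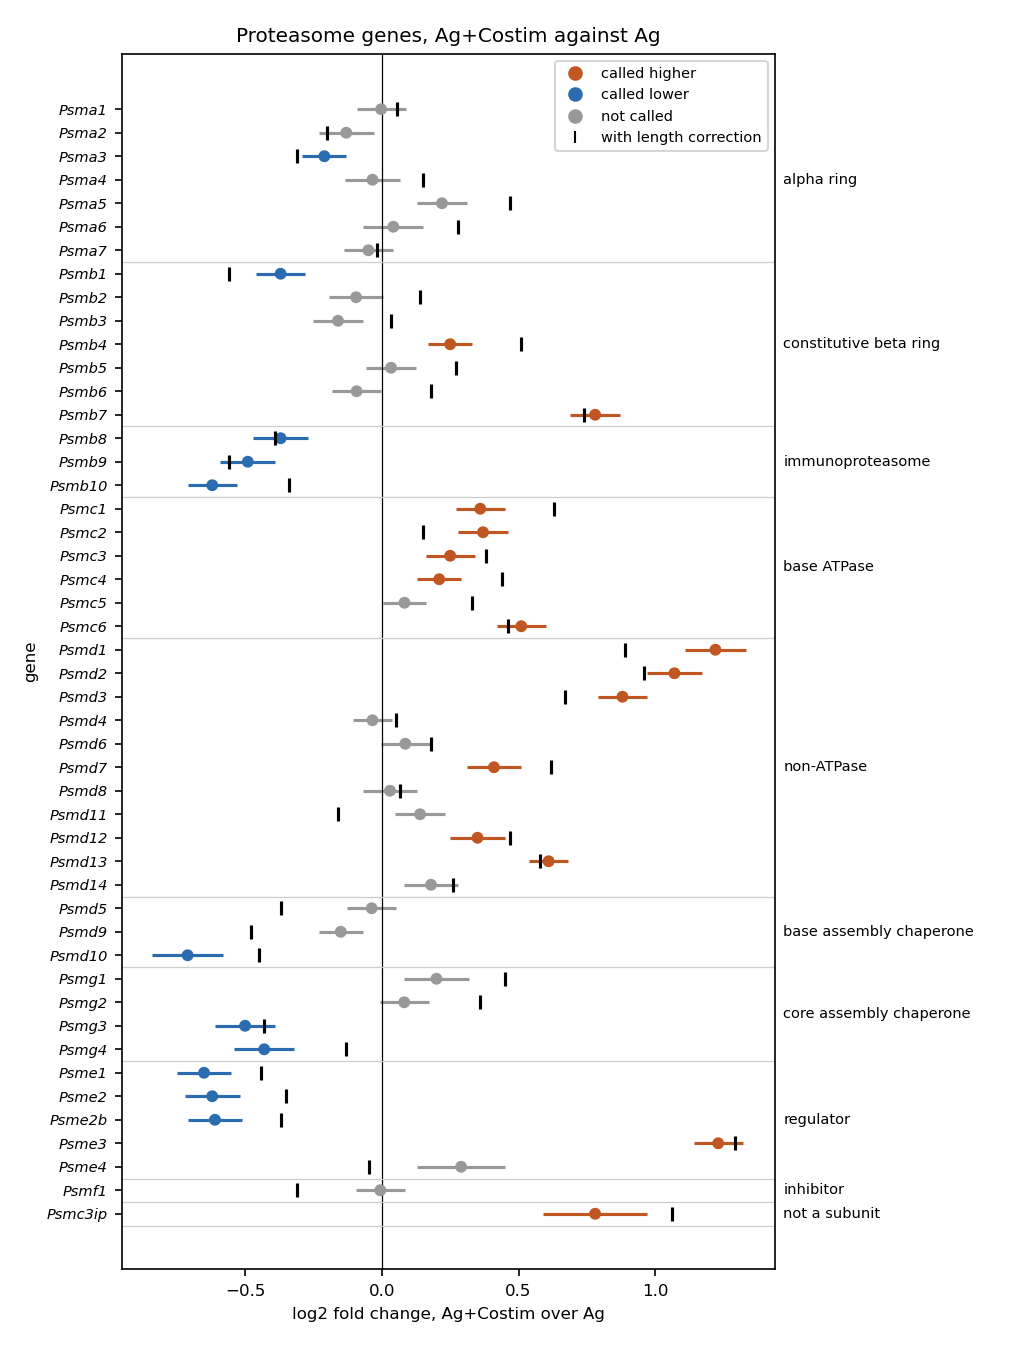
Points are the log2 fold changes of the 48 genes in Ag+Costim vs Ag with bars of 1 SE, coloured by the call, and black ticks are the values with the length correction. The non-ATPase genes Psmd1, Psmd2 and Psmd3 and the activator Psme3 lie farthest to the right, Psmd10 and Psme1 lie farthest to the left, and all 3 immunoproteasome genes are left of 0.

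Of the 7 assembly chaperones, 6 were called higher in Ag vs Naive, where 24.2% of all genes tested were. In Ag+Costim vs Ag 3 of the 7 were called lower and none higher, against 26.5% and 26.6% of all genes. With so few genes, the counts in Ag+Costim vs Ag are not set apart from those shares. With the length correction Psmg1 (0.45) and Psmg2 (0.36) were called higher in Ag+Costim vs Ag. Psmd10 (gankyrin), a chaperone of the ATPase ring, was at 47.7 and 46.1 CPM in Naive, 129, 96.8, 128, 75.5 and 108 CPM in Ag and 66.9, 58.9, 64.8, 67.5 and 71.1 CPM in Ag+Costim. The Ag libraries were the highest, with no overlap. Its log2 fold changes were 1.20 in Ag vs Naive (SE 0.18, adjusted p = 0.000129 with edgeR) and -0.71 in Ag+Costim vs Ag (SE 0.13, adjusted p = 0.000399), the lowest value of the 48 there, and -0.45 with the length correction. The other ATPase chaperones, Psmd5 and Psmd9, were called higher in Ag vs Naive (0.49 and 0.39), a call that Psmd9 lost without either Naive library and in FPKM (-0.011), and Psmd5 without Naive 2. Ag+Costim vs Ag gave no call for them (-0.037 and -0.15), except as lower with the length correction (-0.37 and -0.48) and with upper-quartile scaling. In FPKM Psmd9 was also called lower in Ag+Costim, at -0.32 against Ag and -0.33 against Naive. Of the 4 chaperones of the core, Psmg1, Psmg2 and Psmg3 were called higher in Ag than in Naive (0.84, 0.33 and 0.76), while Psmg3 and Psmg4 fell from Ag to Ag+Costim (-0.50 and -0.43). The call of Psmg4 was lost with the length correction, at -0.13, and that of Psmg2 in Ag vs Naive without either Naive library.

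Psmc3ip shares the symbol but is no subunit: it encodes a partner of the recombinases of homologous recombination. It had the lowest CPM of the 48 in Naive, at 5.31 and 5.8 CPM, and was at 18.4, 13.4, 17.1, 23.2 and 9.38 CPM in Ag and 30.2, 29.7, 29.7, 22.5 and 28 CPM in Ag+Costim. Ag 4 was just above the lowest Ag+Costim library, and the difference of these groups was 0.78 (SE 0.19, adjusted p = 0.004 with edgeR). Its log2 fold change in Ag+Costim vs Naive, 2.34, was the largest of the 48 (SE 0.30, adjusted p = 2.24e-05 with edgeR). Without it, the median of the other 47 was 0.65 in Ag vs Naive and 0.034 in Ag+Costim vs Ag.

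Ag+Costim vs Naive shares libraries with both other comparisons. There 38 of 48 genes (79.2%) were called higher, against 26.9% of all genes tested, and none lower, against 25.4%, with edgeR's test. At an unadjusted p under 0.05 1 was lower (Psme1), and DESeq2 called 0 lower. The median log2 fold change was 0.75, and that of all genes -0.024. In 40 genes the Ag+Costim libraries all lay above Naive (31.7% of all genes did so) and in 1, Psme1, all below (34.2% of all genes). The largest values among the subunits were those of the 19S genes Psmd1 (1.56, SE 0.16), Psmd2 (1.35, SE 0.14), Psmd14 (1.31, SE 0.14) and Psmd13 (1.29, SE 0.09). Their adjusted p were 3.09e-06, 4.56e-06, 5.61e-06 and 1.33e-07 with edgeR. Psmc1 (1.28), the alpha ring gene Psma4 (1.27), Psmd12 (1.24) and the beta gene Psmb7 (1.23) followed closely. With the length correction Psma4 and Psmd14 were both at 1.39, above Psmd2 (1.34) and Psmd13 (1.32). The genes not called were Psmb10, Psmd4, Psmd9, Psme1, Psme2, Psme2b, Psme4, Psmf1, Psmg3 and Psmg4.

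Followed over both steps, 19 genes were called higher in Ag vs Naive and not called in Ag+Costim vs Ag, 6 of them alpha ring genes. Another 11 were called higher in both, among them Psmb7 and 5 ATPases, and 10 were called higher and then lower, among them the 3 immunoproteasome genes, PA28 alpha and beta, Psmd10 and Psmg3. Psmd1, Psmd2, Psmd3 and Psme3 were called higher in the second step and not called in the first, where settings decide the call of the first 3 as given above. Since the steps share the Ag libraries, the counts are given as a description. The same patterns were not counted over all genes tested, so whether any of them is unusual is not known.

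Summed per length, the classes stood as follows. The alpha ring summed to 1259 ± 63.6 FPKM in Naive, 2062 ± 192 in Ag and 1937 ± 114 in Ag+Costim (SD, n = 2, 5 and 5), and the constitutive beta ring to 1401 ± 83.3, 2282 ± 214 and 2141 ± 108. For both, the Ag and Ag+Costim libraries overlapped. The immunoproteasome subunits summed to 791 ± 40.6, 1453 ± 98.6 and 1053 ± 80.9 FPKM, and PA28 alpha and beta with Psme2b to 1306 ± 77.7, 1544 ± 91.8 and 949 ± 117. In both classes every Ag library was above every Ag+Costim library. The non-ATPase subunits summed to 1071 ± 3.89, 1422 ± 88.8 and 1796 ± 114 FPKM, rising without overlap. The most abundant single gene per length was Psme2 in Naive (606 ± 29.6 FPKM) and Psmb8 in Ag (780 ± 80.4) and Ag+Costim (607 ± 42.1). In Ag, Psmb8 and Psme2 (773 ± 60.1 FPKM) differed by less than the spread of the libraries.

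**Figure D5:**
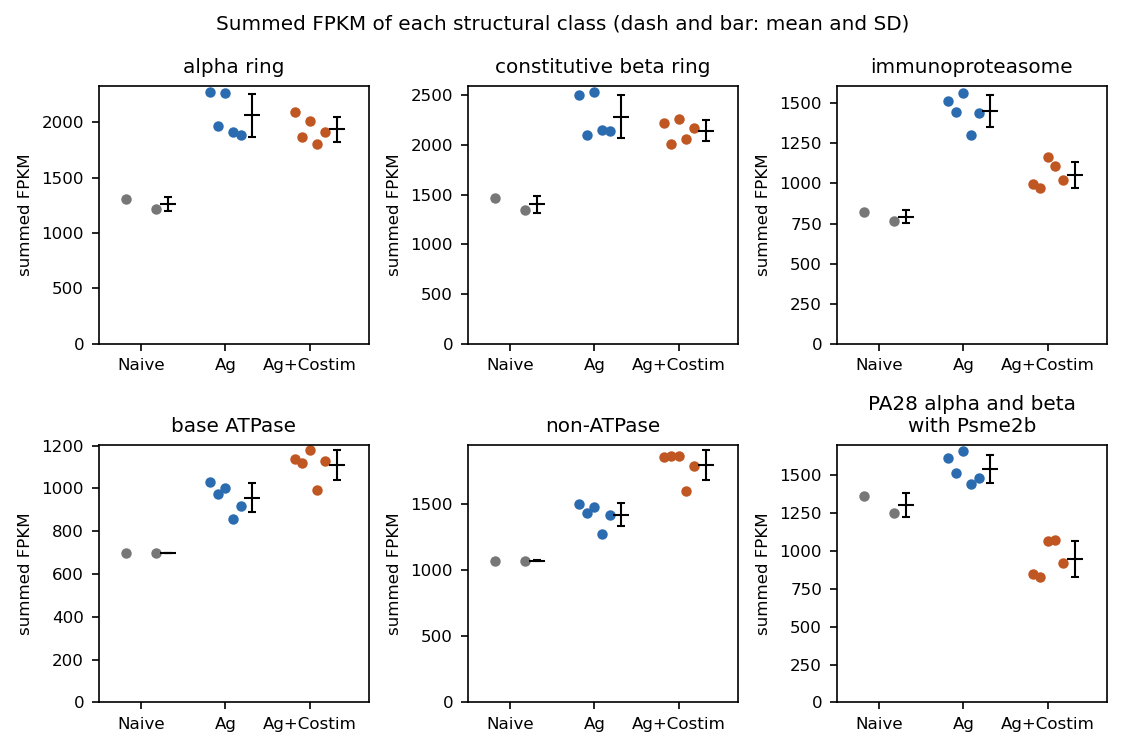
Each point is the summed FPKM of the genes of a class in 1 library, with the mean and SD of the group. The rings are alike in Ag and Ag+Costim, the immunoproteasome and PA28 are lower in Ag+Costim than in Ag, and the non-ATPase genes are higher in every Ag+Costim library than in Ag, while the ATPase genes overlap.

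Few isoforms of the proteasome genes were called. Each transcript was tested for a log2 fold change between groups that differs from that of its gene (edgeR's diffSpliceDGE). Of 204 transcripts of 44 genes, 2 were called in Ag vs Naive, 4 in Ag+Costim vs Ag and 4 in Ag+Costim vs Naive. These were 0.98%, 1.96% and 1.96%, against 1.57%, 2.41% and 1.17% of all 41844 transcripts. The Psmc6 transcript with a nonsense-mediated decay annotation, Psmc6-208, held 1.82% to 1.98% of the gene's counts in Naive, 0 to 0.0684% in Ag and 0 to 0.26% in Ag+Costim. Psmd8-201 and Psmd8-203 held at most 1.01% and 1.02% in Ag+Costim, but from 0.479% and 0.53% to 24.5% within Ag, so the Ag libraries spread widely and overlapped Ag+Costim. Psma4-207 was at 0 in both Naive libraries and reached 11.5% in Ag and 13.2% in Ag+Costim, with libraries at 0 in both. The other calls, in Psmd11, Psme1 and Psmc3, rested on transcripts that were at 0 in at least 1 Ag+Costim library. When only transcripts with 10% or more of the gene's counts were tested, 0, 0 and 1 of 40 were called.

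Psi (percent spliced in) estimates the share of a gene's transcripts that include a node, which is a piece of an exon, or a tandem start or end. It was deposited as the authors' 1 value per group, so it has no error. Of 441 nodes in 47 of the genes, 5 differed by over 0.1 between Ag and Ag+Costim (1.13%, against 7.39% of 115403 nodes). The nodes were not matched for read depth, so these shares are not a like comparison. The last node of Psmd13, a tandem end (chr7:140898613-140898642), went from 0.925 in Ag to 0.804 in Ag+Costim, and the node before it (chr7:140898234-140898612) from 0.076 to 0.196. A tandem end node of Psmd4 (chr3:95032694-95032696) went from 0.226 to 0.113, and the first start node of Psmd12 (chr11:107479484-107479527) from 0.176 to 0.074. An internal exon of Psmg4 (chr13:34166061-34166136) went from 0.605 to 0.713. The counting error of these values is unknown.

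Genes that serve the proteasome were read from a list of 40 further genes, of which 38 were tested (Ddi1 and Paaf1 were not). Their calls were 12 higher and 12 lower in Ag vs Naive (31.6% each), in Ag+Costim vs Ag 20 higher and 8 lower (52.6% and 21.1%), and in Ag+Costim vs Naive 17 higher and 2 lower (44.7% and 5.26%). Over all genes tested the higher and lower shares were 24.2% and 22.5%, 26.6% and 26.5%, and 26.9% and 25.4%, so some of these shares lie near the background. Their median log2 fold changes were -0.017, 0.30 and 0.31. Pomp, the maturation factor of the core, followed the immunoproteasome genes. It was at 166 and 153 CPM in Naive, 453, 361, 473, 358 and 370 CPM in Ag and 326, 281, 318, 314 and 319 CPM in Ag+Costim, without overlap, with log2 fold changes of 1.34 in Ag vs Naive (SE 0.13, adjusted p = 4.4e-06 with edgeR) and -0.37 in Ag+Costim vs Ag (SE 0.09, adjusted p = 0.00463). Akirin2, which mediates nuclear import of proteasomes, was at 16.9 and 19.9 CPM in Naive, 43.6 to 61.2 CPM in Ag and 12.4 to 30.5 CPM in Ag+Costim. Its log2 fold changes were 1.54 and -1.28. Sem1, the smallest 19S subunit, was at 1.03 and -0.74, and Txnl1, a proteasome-bound thioredoxin, at 1.12 and 0.32, the last not called with upper-quartile scaling (0.12) or the length correction (0.01).

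Nfe2l1, which activates proteasome genes when degradation is impaired, moved the other way. It was at 43.1 and 41.6 CPM in Naive, 22.7, 25.6, 21.4, 23.1 and 26.2 CPM in Ag and 46.2, 64, 47.5, 44.1 and 41.1 CPM in Ag+Costim, lowest in Ag with no overlap. Its log2 fold changes were -0.83 in Ag vs Naive (SE 0.15, adjusted p = 0.000522 with edgeR) and 1.03 in Ag+Costim vs Ag (SE 0.12, adjusted p = 7.47e-06). Ddi2, the protease that activates Nfe2l1, was at -0.58 and 1.26, both called, though the first was -0.095 and not called with the length correction. Ngly1 and Nfe2l2, listed with them, did not follow this order. Ngly1 was called higher in Ag vs Naive (0.64) and not called in Ag+Costim vs Ag (-0.12, but lower with the length correction, at -0.45). Nfe2l2 was called lower in Ag vs Naive (-0.62) and in Ag+Costim vs Naive (-0.84). In Ag+Costim vs Ag it was not called (-0.22, but lower with upper-quartile scaling, at -0.41).

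The ubiquitin shuttles, which carry substrates to the 19S particle, had the largest differences of the list. Of 8 tested with the p97 segregase genes, 7 rose and 1 fell from Ag to Ag+Costim (87.5% and 12.5%, against 26.6% and 26.5% of all genes). Rad23b was at 29.7 and 32.7 CPM in Naive, 8.03 to 11.8 CPM in Ag and 47.3 to 63.6 CPM in Ag+Costim, Ubqln4 at 68.2 and 65.3, 13.1 to 19.2 and 62.9 to 81.9 CPM, and Ubqln2 at 11.8 and 11.3, 1.7 to 3.7 and 11.3 to 16.4 CPM. Ag was lowest for all 3. Their log2 fold changes from Ag to Ag+Costim were 2.46, 2.31 and 2.36 (SE 0.13, 0.12 and 0.19, adjusted p = 1.56e-08, 1.56e-08 and 3.76e-07 with edgeR), and in Ag vs Naive they were -1.63, -2.20 and -2.04. Against Naive the highest of the list in Ag+Costim were Txnl1 (1.44), the deubiquitinase Uchl5 (1.40) and Uba1 (1.31), the main ubiquitin-activating enzyme.

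Of 9 genes of the interferon axis and peptide loading, 2 were called higher and 4 lower in Ag vs Naive (22.2% and 44.4%, against 24.2% and 22.5% of all genes), and 4 higher and 1 lower in Ag+Costim vs Ag (44.4% and 11.1%, against 26.6% and 26.5%). Irf1, a transcription factor that induces Psmb8 and Psmb9 in interferon responses, was at 379 and 357 CPM in Naive, 269, 332, 285, 247 and 336 CPM in Ag and 201, 250, 270, 309 and 219 CPM in Ag+Costim. Ag and Ag+Costim overlapped below Naive. Its log2 fold changes were -0.32 in Ag vs Naive (adjusted p = 0.114 with edgeR), -0.24 in Ag+Costim vs Ag (adjusted p = 0.125, called lower with upper-quartile scaling at -0.43 and with the length correction at -0.35) and -0.56 in Ag+Costim vs Naive (adjusted p = 0.00932). B2m, the light chain of MHC class I, rose from Naive to Ag (0.66, and 0.46 without a call under the length correction) and fell from Ag to Ag+Costim (-0.76). Tap1, Tap2 and Erap1, which feed peptides to MHC class I, were called higher in Ag+Costim than in Ag, at 0.43, 0.58 and 0.94. Of these, Tap1 was not called with upper-quartile scaling (0.24) or the length correction (0.19). In Ag vs Naive Tap1 was called higher, at 0.36, and Tap2 and Erap1 lower, at -0.45 each. Nlrc5 was called lower in Ag vs Naive, at -0.71, and higher in Ag+Costim vs Ag, at 0.96, with overlapping libraries. The length correction ended the calls of Nlrc5 (-0.29) and Erap1 (-0.083) in Ag vs Naive. Ifngr1 was called lower in Ag vs Naive (-0.44) and not called in Ag+Costim vs Ag (0.27).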

How the data were processed

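Poly(A) RNA-seq of 12 libraries was analysed. Single-end reads of 100 bases were aligned by the authors to mm10 with HISAT2 2.1.0 and quantified with StringTie 2.1.0, per the labels. The deposited gene and transcript counts are not normalized. Deposited FPKM, from StringTie, is given for each transcript and was summed here over a gene name. The authors ran Whippet for Psi, a fraction deposited once for each group (how replicates were combined is not stated). Columns of their own comparison (Psi difference and probability) were not used.

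Of 81881 gene entries, 26345 without an identifier (0.0508% to 0.121% of counts) were left out, and 55536 were matched to GENCODE vM21. Counts were tested with edgeR 4.0.16 in R 4.3.3 (TMM, filterByExpr, 1 term per group over all 12 libraries, robust quasi-likelihood, two-sided, Benjamini-Hochberg over 18817 genes, 0.05). CPM use TMM library sizes. Alternatives were upper-quartile and RLE scaling, no filter, 2 groups alone, DESeq2 1.42.0, limma 3.58.1 on log2 FPKM (pseudocounts 1 and 0.1), a length correction (lowess trend of log2 count against exon length), the replicate block and leaving out each library. The steps were tested on simulated data.

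Members and lists were chosen with earlier results of these data known. Genes given in full are Psmb5 to Psmb10, Psme1 to Psme4, and the 5 highest and 5 lowest called members per comparison whose libraries do not overlap; companion genes named by rule, some by log2 fold change alone, are the 3 highest and 3 lowest called with Pomp, Nfe2l1 and Irf1 (1 further gene under this rule is not reported here). Others named were chosen after their values were seen. Python 3.11.15, pandas 2.3.3, scipy 1.17.1 and matplotlib 3.10.9 were used.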

Additional observations from a re-analysis of the deposited data

Results flagged for a closer look

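For the 19 genes given in full, 1 library stood apart from the rest of its group by Dixon's ratio in 2 of 38 groups of 5 libraries, and chance flags about 1 in 20 groups. In both the library was Ag+Costim 4. Psmd1 was at 289 CPM there and at 366 CPM or more in the other Ag+Costim libraries (gap over range 0.72). Psmc3ip was at 22.5 CPM there and at 28 CPM or more in the others (0.711). The critical value for 5 libraries is 0.71.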

How the results depend on the processing

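The scaling between libraries is the main limit on directions in Ag+Costim vs Ag. Upper-quartile scaling moved the median of all genes there from -0.05 to -0.24, and the calls over all genes from 5006 higher and 4979 lower to 4056 and 6338. With it 8 members were called higher and 19 lower, with a median of -0.16. Relative to all genes the members' median was 0.09 with TMM, 0.08 with upper-quartile scaling and 0.19 with the length correction. Of the calls there, 8 of 15 higher and 9 of 11 lower were made in the same direction under every alternative. In Ag+Costim vs Naive the median of members was 0.60 with upper-quartile scaling, 0.88 with the length correction, 0.54 and 0.55 with FPKM at pseudocounts of 1 and 0.1, and the members called lower numbered 1 with upper-quartile scaling, 1 with the replicate block, and 5 and 4 with FPKM. In Ag vs Naive FPKM gave medians of 0.47 and 0.48, and 2 members called lower at both pseudocounts (Psme3 and Psme4). Psmb10 and Psme2, near 0 in Ag+Costim vs Naive, were called lower with FPKM, at -0.27 and -0.36. The cause was not tested.

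Without 1 library at a time, members called higher ran from 31 (without Naive replicate 2) to 43 in Ag vs Naive, 12 to 16 in Ag+Costim vs Ag and 34 to 40 in Ag+Costim vs Naive. Those called lower ran from 0 to 1 (without Ag replicate 4), 10 to 12 and 0 to 0, and the medians from 0.62 to 0.72, -0.00066 to 0.11 and 0.72 to 0.82. Replicate numbers did not pair the samples (correlations of 0.0159 to 0.0951 for the same number, with 3 of 5 Ag libraries closest to their own). With the replicate block, the members with a higher call in Ag+Costim vs Ag numbered 17 and those with a lower call 11, and Psmd1 (0.44) and Psmd2 (0.33) were called higher in Ag vs Naive. Calls over all genes are not set beside the counts of the leave-one-out and block fits. Member transcripts with changed usage fell from 2, 4 and 4 to 0, 0 and 1 when minor transcripts were left out.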
